A study of Mus musculus with 200 samples.

Results

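The 10 genes described here encode heat shock proteins and were taken by symbol from the 22033 genes in the count tables. *Hspa1a*, *Hspa1b*, *Hsph1*, *Dnajb1*, *Hspb1* and *Hsp90aa1* were treated as the 6 stress-inducible cytosolic members, and *Hspa8*, *Hspd1*, *Hspe1* and *Hspa5* as the 4 constitutive or organelle members. Poly(A)+ RNA of single whole mouse embryos at E11.5, freed of extra-embryonic material, was measured by 3SEQ, in which reads come from the 3′ end of each transcript. The F1 embryos came from C57BL6/J (B6) mothers and Castaneus (Cast) fathers (B6 × Cast, n = 8) or from the reciprocal cross (Cast × B6, n = 8), and carry 1 B6 and 1 Cast allele at every autosomal gene. The N2 embryos came from (B6 × Cast)F1 animals backcrossed to B6, and the mother was B6 in the cross written B6 × F1 (89 embryos used) and F1 in the cross written F1 × B6 (65 embryos used). They are B6/B6 or B6/Cast at each gene, and no group was heated or treated. Littermates share a mother, and values over embryos of 1 litter are therefore not fully independent.

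Heat shock proteins bind unfolded or partly folded proteins and hold, fold or hand them on. In the cytosol the HSP70 proteins (*Hspa1a*, *Hspa1b* and the constitutive *Hspa8*) work with a J-domain partner (*Dnajb1*) that starts ATP hydrolysis and with a nucleotide exchange factor of the HSP110 class (*Hsph1*), while *Hsp90aa1* is an inducible HSP90 and *Hspb1* a small heat shock protein. *Hspa5* (BiP) is the HSP70 of the endoplasmic reticulum, where the unfolded protein response induces it, and *Hspd1* and *Hspe1* form the HSP60 and HSP10 folding chamber of mitochondria.

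Genes of the first kind are induced through heat shock elements, repeats of the unit NGAAN bound by HSF1, and *Hspa5* through ER stress elements, so the stretch from 250 bases before to 50 after the transcription start was read from RefSeq (GRCm38.p6) for the 8 members that matched the promoter table; *Hspa8* and *Hsp90aa1* had no entry. An inverted pair of units (TTCNNGAA or GAANNTTC, which read alike on both strands) is present in 15.1% of all 32851 promoters. The promoters below are shown because *Hspa1a* and *Hsph1* share this motif but lie near opposite ends of the range of read counts among the members, and because *Hspa5* carries the motif of the other response. Capitals mark the inverted pairs in *Hspa1a* (1 pair) and *Hsph1* (3 pairs, of which the last 2 overlap), and in *Hspa5* the match to an ER stress element, searched as CCAAT, any 9 bases and CCACG on both strands.
Hspa1a (chr17:34972107-34972406, minus strand): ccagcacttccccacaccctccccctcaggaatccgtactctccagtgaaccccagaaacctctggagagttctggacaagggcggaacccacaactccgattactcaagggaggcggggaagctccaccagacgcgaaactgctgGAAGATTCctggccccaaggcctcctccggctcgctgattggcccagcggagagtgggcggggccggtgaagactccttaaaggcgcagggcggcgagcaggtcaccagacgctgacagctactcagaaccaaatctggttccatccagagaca
Hsph1 (chr5:149636287-149636586, minus strand): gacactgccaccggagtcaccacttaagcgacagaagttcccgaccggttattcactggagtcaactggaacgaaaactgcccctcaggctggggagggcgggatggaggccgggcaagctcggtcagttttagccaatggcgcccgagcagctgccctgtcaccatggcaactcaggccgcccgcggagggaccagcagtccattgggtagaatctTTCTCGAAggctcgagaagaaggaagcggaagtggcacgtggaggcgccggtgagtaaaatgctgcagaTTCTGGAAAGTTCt
Hspa5 (chr2:34771840-34772139, plus strand): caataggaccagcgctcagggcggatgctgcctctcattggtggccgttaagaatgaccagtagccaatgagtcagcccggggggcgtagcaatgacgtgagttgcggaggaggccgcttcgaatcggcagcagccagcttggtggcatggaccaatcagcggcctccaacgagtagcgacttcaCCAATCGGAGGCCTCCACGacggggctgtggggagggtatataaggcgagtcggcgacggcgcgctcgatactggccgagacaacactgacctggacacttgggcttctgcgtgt

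The promoter of *Hspa1b* differed from that of *Hspa1a* at 4 of 300 bases (98.7% identity) and held the same single pair. *Hspb1* held 2 pairs and *Hspe1* 3. The promoter window of *Hspd1* that overlaps the window of *Hspe1* head to head held the same 3 pairs, and the other window of *Hspd1* held 0. *Dnajb1* held none in these windows. The ER stress element was found in 39 promoters of the whole table (0.119%), and *Hspa5* held 4 CCAAT boxes, 1 of them within its match.

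Between 15703888 and 38234229 reads per F1 embryo were counted on genes, and between 245220 and 5370322 per N2 embryo, with the lowest median (577807) in lane J. RPM here are the reads of a gene per 1000000 reads on genes, not scaled by length. They were tested between embryos for 1 gene and not between genes. Genes also differ in near-identical copies elsewhere in mm9, given below, so levels of different genes are only roughly comparable. At the median depth, 3 reads correspond to 0.0996 RPM in F1 and 1.31 RPM in N2 embryos. In N2, 29 litters were spread over 14 lanes, of which 8 held only embryos of B6 mothers, 5 only embryos of F1 mothers and 1 both. Erythroid, muscle, lens and neural markers were found in every group, as a whole embryo should show, and the 7 trophoblast and decidua markers had a median sum of 0 RPM in both N2 crosses (highest 22.9 RPM, in lane N) and at most 0.869 RPM in F1. In bulk RNA of a whole embryo, fewer cells with a transcript and less of it per cell cannot be told apart.

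The N2 libraries A03 (lane A, B6 × F1 litter 12), G03 (lane G, F1 × B6 litter 7) and L04 (lane L, F1 × B6 litter 12) stood apart from the rest of their lanes. Of 3513 genes that averaged 50 RPM or more, 938 in G03, 737 in L04 and 219 in A03 lay more than 2-fold outside the range of the other embryos of the lane, against a median of 1 gene per embryo and 134 in the library that came next. *Hsph1* was among them, at 3.51 RPM (9 reads) in A03, 16.1 RPM (39 reads) in G03 and 24.5 RPM (31 reads) in L04, where the medians of the other embryos were 297, 335 and 241 RPM. The 3 libraries were kept, and results that changed without them are given both ways.

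The members fell into 5 that reached a mean of 5 RPM in F1 and in N2 and 5 that did not. Among the 6 inducible members *Hsph1* and *Dnajb1* passed, and among the 4 others *Hspa8*, *Hspe1* and *Hspa5*. *Hsph1* averaged 311 ± 59.1 RPM in F1 (SD, n = 16) and 274 ± 89.3 RPM in N2 (SD, n = 154). *Dnajb1* averaged 100.2 ± 20.2 RPM in F1 and 77 ± 28.8 RPM in N2. *Hspa8* averaged 559 ± 192 and 791 ± 510 RPM, *Hspa5* 83 ± 32.9 and 155 ± 171 RPM, and *Hspe1* 5.74 ± 5.59 and 14.4 ± 17.6 RPM. *Hspa8*, *Hspe1* and *Hspa5* thus had larger SDs relative to their means in N2 than *Hsph1* and *Dnajb1*.

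The other 5 members had few reads. In N2 their means lay under the 1.31 RPM that 3 reads make at the median depth, and in F1 only that of *Hspa1b* lay under the corresponding 0.0996 RPM. *Hspa1a* had 408 reads over all F1 embryos (0.875 ± 0.425 RPM) and 197 over the N2 embryos (0.592 ± 0.683 RPM), with no read in 60 of 154. In F1 its highest values were those of the 3 embryos of B6 × Cast litter 3, the oldest litter, at 1.18, 1.91 and 1.43 RPM. *Hspa1b*, its neighbour on chromosome 17, had 36 reads in each generation and none in 127 of 154 N2 embryos. *Hspb1* averaged 1.14 RPM in F1 and 0.475 in N2, *Hsp90aa1* 0.431 and 0.445 RPM, and *Hspd1* 0.822 and 0.366 RPM. Reads that match a second place in the genome had been discarded, and the part of this step in the low counts was not tested.

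How far such copies reach was checked with 17 windows of 100 bases in the last 500 bases of each transcript, searched in mm9 with up to 3 edits. All 17 windows of *Hspd1* and of *Hspe1* had a second match, as did 14 of *Hspa8* (82.4%) and 9 of *Hspb1*. The 6 other members had none. The levels of *Hspd1*, *Hspe1*, *Hspa8* and *Hspb1* may therefore come from only a part of their reads, and how large a part was not measured. The row *LOC624853* holds the reads of *Hspa8* again, with 255279 against 255342 reads in N2 and 238625 against 238774 in F1, so it was not counted as a further gene. In mm9 *Hspa8* lies on chromosome 9 from 40609067 to 40613283 (plus strand), *Hsph1* on chromosome 5 from 150416862 to 150438951 (minus strand), and *Hspa5* on chromosome 2 from 34627490 to 34632051 (plus strand). *Dnajb1* lies on chromosome 8 from 86132074 to 86135801, and the first exons of *Hspe1* (chromosome 1, 55144976 to 55148151, plus strand) and *Hspd1* (55134679 to 55145087, minus strand) overlap head to head.

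The first question was whether the embryo's own genotype changes the level of a member. *Hspa8* was lower in embryos with a Cast allele and was the 1 member of 5 tested that passed, where 27.7% of all 9762 genes did. In the 68 B6/B6 embryos its level ran from 462 to 3271 RPM with a median of 910.2, and in the 85 B6/Cast embryos from 236 to 1689 RPM with a median of 453. The ranges of all lanes together overlapped, but within lanes the heterozygous median was the lower in 14 of 14 lanes, the genotypes did not overlap in 9, and the ratio of the medians lay between 1.58 and 2.95. In lane A, for instance, 7 heterozygous embryos had 322 to 465 RPM and 3 homozygous embryos 816 to 1166 RPM. After lane, sex, somite number and 15 principal components had been regressed out, the medians differed by −0.80 on the log2(RPM + 1) scale (rank-sum test, q = 1.7e-20), the 18th smallest p of all genes. A negative binomial fit per gene in edgeR with lane as a term gave a log2 ratio of −0.99 (95% interval −1.11 to −0.87, adjusted p = 4.7e-33), a fold of 0.503.

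**Figure D1:**
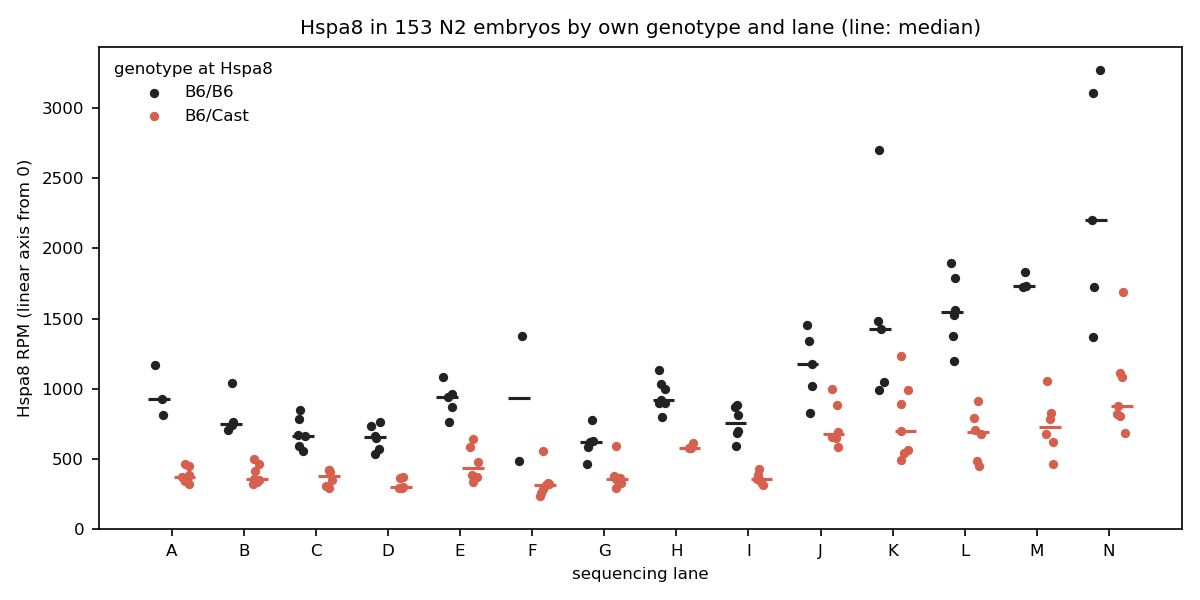
RPM of *Hspa8* (linear axis from 0) in N2 embryos by lane, with 68 B6/B6 and 85 B6/Cast embryos at *Hspa8* in separate colours, with the median of each as a line. The B6/Cast median lies under the B6/B6 median in all 14 lanes, and in 9 lanes the points do not overlap.

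Heterozygous N2 embryos averaged 541 ± 263 RPM of *Hspa8* and the F1 embryos, which are all heterozygous, 559 ± 192 RPM, while homozygous N2 embryos averaged 1098 ± 575 RPM. The allele votes, in which SNPs within reads are assigned to B6 or Cast, hardly bear on this gene: 23 B6 and 12 Cast votes were recorded over the 16 F1 embryos, or 0.0147% of its reads, and 3 B6 and 7 Cast votes over the heterozygous N2 embryos (BAF 0.3). *Hspa8* therefore missed the minimum for allele-specific expression. The formula of the methods predicted a BAF (the share of B6 among all votes) of 1.01 from the mean levels, but the votes were too few to set beside it. *Hspa8* has near-identical copies elsewhere in mm9, as given above, and reads were filtered for uniqueness against the B6 and the Cast genome, and the part of this filter in the difference was not tested.

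The other 4 members tested did not pass. *Hsph1* had a median of 303 RPM in 72 B6/B6 embryos and 277 RPM in 82 B6/Cast embryos, *Dnajb1* 73.9 and 78.5 RPM, *Hspe1* 5.79 and 8.38 RPM, and *Hspa5* 66.4 and 54.8 RPM. The edgeR fit with lane gave *Hsph1* a log2 ratio of −0.11 (95% interval −0.27 to 0.045) and *Dnajb1* −0.041 (−0.14 to 0.057). For *Hspa5* it was −0.075 (−0.24 to 0.092) and for *Hspe1* 0.085 (−0.28 to 0.45). Among the other chaperone genes, 6 of 31 in the list of HSF1 and cytosolic co-chaperones passed, as did 0 of 8 CCT subunits, 6 of 24 ER genes, 5 of 13 mitochondrial genes and 2 of 8 immediate early genes, which report recent stimulation of cells. Over all genes 27.7% passed. *Hyou1*, an ER relative of the HSP70s, differed by 1.02 (q = 3.7e-15), with heterozygotes higher. *Ubb*, a polyubiquitin gene, differed by −0.75 (q = 2.1e-13).

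Allele-specific expression asks whether the 2 alleles of a heterozygous embryo contribute equal reads. *Hsph1* was the 1 member called of 4 tested, with the Cast allele higher, where 18.9% of 9084 genes were called. Its BAF per embryo ran from 0.198 to 0.333 in B6 × Cast (mean 0.282 ± 0.0450, SD, n = 8) and from 0.190 to 0.436 in Cast × B6 (mean 0.295 ± 0.0843, n = 8), so that all 16 F1 embryos lay under 0.5. In heterozygous N2 embryos with at least 20 votes it averaged 0.234 ± 0.147 with a B6 mother (n = 26) and 0.358 ± 0.115 with an F1 mother (n = 17). Pooled over votes the BAF was 0.294, the Cast allele had more votes in 79 of 98 embryos, and the paired test of the methods gave a Bonferroni-adjusted p of 1.3e-14. The call held in the F1 embryos alone (adjusted p = 7.2e-05 over all genes, 16 embryos) and in the N2 embryos alone (2.6e-09). In B6/B6 embryos 5 votes were for Cast beside 1272.6 for B6, which is the background of the assignment.

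**Figure D2:**
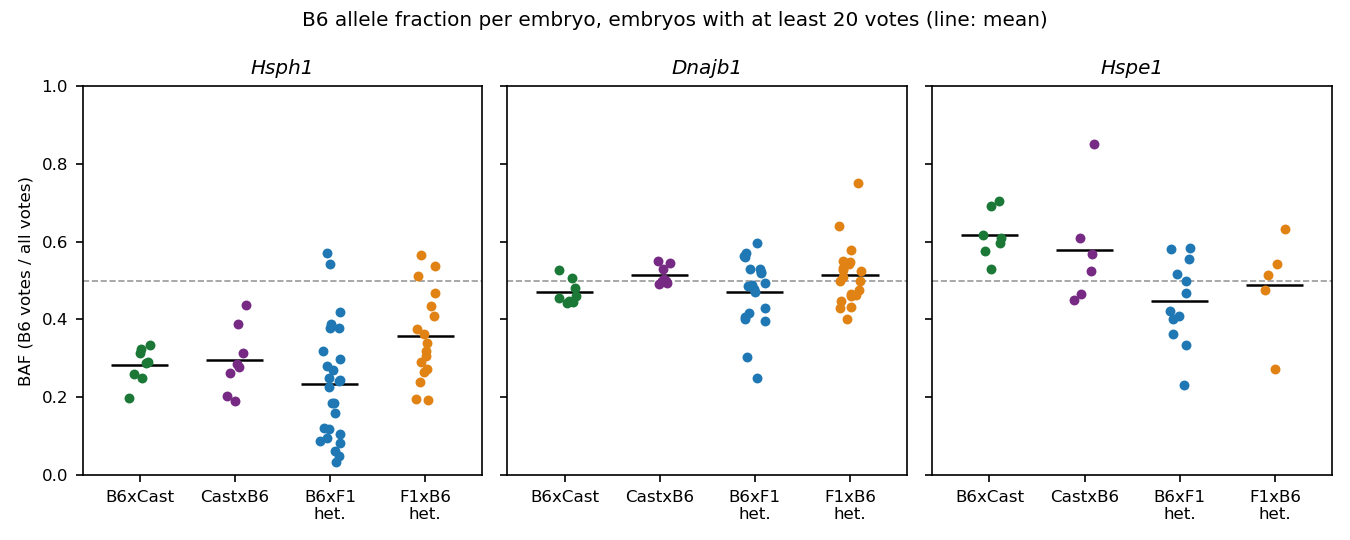
BAF per embryo (vertical axis, 0 to 1) of *Hsph1*, *Dnajb1* and *Hspe1* in both F1 crosses and in heterozygous N2 embryos of both backcrosses, for embryos with at least 20 votes, with the mean as a line and 0.5 dashed. All 16 F1 points of *Hsph1* lie under 0.5, and the N2 points spread more widely.

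The BAF and the total level of *Hsph1* did not move alike. If all its reads had followed the pooled BAF, heterozygotes would have exceeded homozygotes by 0.77 on the log2 scale, and the edgeR interval for that difference ended at 0.045. Votes covered 7.58% of the *Hsph1* reads in F1 and 4.24% in heterozygous N2 embryos. Where the remaining reads fall between the alleles was not measured.

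*Dnajb1* had votes on 14.0% of its F1 reads and a pooled BAF of 0.492, and *Hspa5* one of 0.5 on 0.921% of its F1 reads. *Hspe1* had votes on 69.4% of its F1 reads and a BAF of 0.516 over 88 embryos. However, its B6/B6 embryos held 36.5 Cast votes beside 1586.5 B6 votes, more than those of *Hsph1* or *Dnajb1* (1 beside 3182.5). None of these 3 was called (adjusted p = 1 each, paired test over all genes). *Hspb1* failed the N2 minimum. In F1 its pooled BAF was 0.804 with a B6 mother and 0.784 with a Cast mother, from 163 and 185 votes (exact binomial tests, adjusted p = 2.4e-11 and 4.2e-11), a test that treats each vote as a separate draw and leaves out the spread between embryos. The embryos with at least 20 votes were 3 and 7, with a BAF of 0.769 to 0.897 and of 0.6 to 0.897, so that B6 votes were the more numerous in each of these 10. The lists held 2 of 25 co-chaperone genes with allele-specific expression, 0 of 6 CCT subunits, 2 of 13 ER genes, 1 of 4 immediate early genes and 3 of 10 mitochondrial genes, among them *Clpp*, a mitochondrial protease, with the B6 allele higher by 0.181 in BAF over 0.5 (adjusted p = 7.4e-38). Over all genes 18.9% were called.

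Parent of origin was tested in F1, and 0 of the 5 members with enough votes were called imprinted, where 1.36% of 11911 genes were. *Hsph1* and *Hspb1* had an unadjusted p under 0.05 in both crosses by the exact binomial test, but the same allele was the higher one in each cross, and 0 members were called with the spread over embryos in the model. For *Dnajb1* the pooled BAF was 0.471 with a B6 mother and 0.51 with a Cast mother, and for *Hspe1* 0.605 and 0.507. The BAF of *Hsph1* and *Dnajb1*, the 2 members with 20 informative embryos, was also compared with somite number. Neither passed (Spearman's rho = −0.15 and −0.10, q = 0.87 and 0.92, and 0 at an unadjusted p under 0.05), where 0.299% of 3342 genes did. In both of these tests 0 genes of the 5 lists passed.

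The next question was how the members vary between sequencing lanes, litters, mothers and stages. Over the 154 N2 embryos, lanes held 76.1% of the variance of the ranks of *Hspa5*, 67.6% for *Dnajb1*, 63.1% for *Hspe1*, 48.3% for *Hsph1* and 44.7% for *Hspa8*. The median of all 10007 genes was 59.7%, and group numbers alone would give 8.50%. Litters held between 49.0% (*Hspa8*) and 68.9% (*Dnajb1*), with a median of 59.9% over all genes. The lane share of *Hspa5* was above that of 91.1% of genes and that of *Hspa8* above that of 24.2%.

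The lane medians of *Hspa5* were 38.5 to 56.3 RPM in the 9 lanes A to I and 227 to 397 RPM in the 5 lanes J to N, and only 2 of the 98 embryos of lanes A to I lay above the lowest embryo of lanes J to N (119 RPM). This division of the lanes was read from these values and was not tested as such. *Hspa5* differed between lanes after litter (edgeR quasi-likelihood F = 37.7, adjusted p = 1.1e-28, the 13th smallest p of 10007 genes) and between litters after lane (F = 3.80, adjusted p = 2e-05). The statistic for lanes was 13.8 without lane J (adjusted p = 9.4e-13).

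Littermates that were sequenced in different lanes show this directly for *Hspa5*. In B6 × F1 litter 3, the 6 embryos in lane I had 22.3 to 39.3 RPM and the 2 in lane F 15.8 and 27.8 RPM, while the 3 in lane J had between 324 and 917 RPM. In F1 × B6 litter 3, 5 embryos in lane D had 28.4 to 44.5 RPM and 2 in lane L 253 and 327 RPM. In B6 × F1 litter 13, 4 embryos in lane H had 47.5 to 73.7 RPM and 2 in lane K 196 and 219 RPM. In each of these litters the embryos of the 2 groups of lanes did not overlap.

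**Figure D3:**
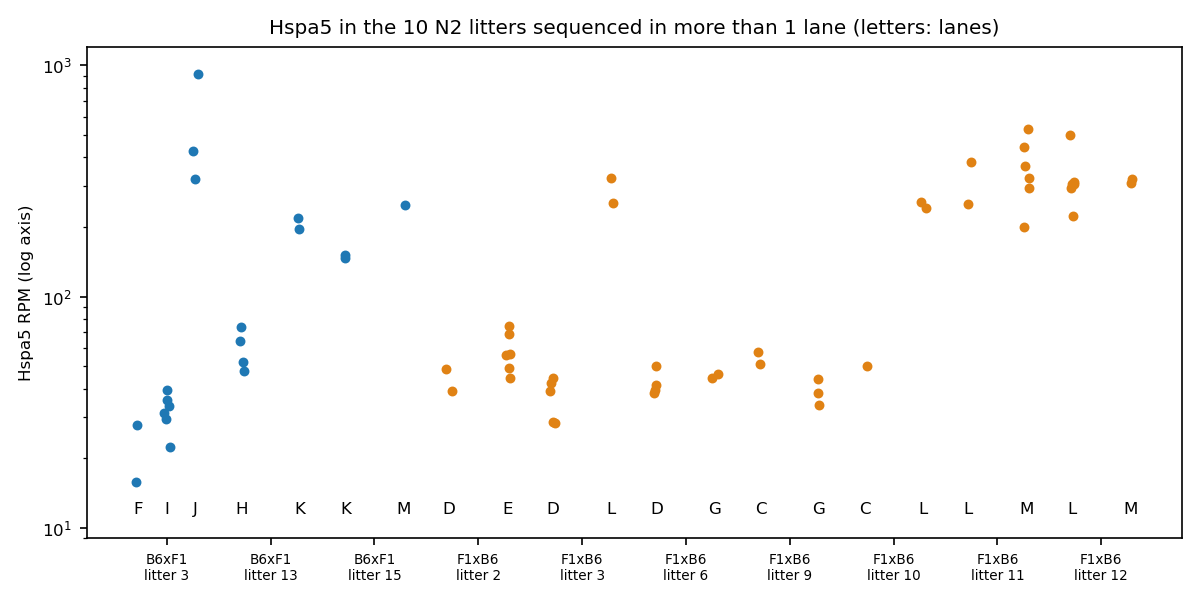
RPM of *Hspa5* (log axis) in the 10 N2 litters with embryos in more than 1 lane, with the lane letter under each column of points, blue for B6 and orange for F1 mothers. Embryos in lanes J to N lie above 100 RPM and their littermates in lanes A to I below.

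The ER list was measured beside *Hspa5*. *Canx*, the chaperone calnexin of the same compartment, had lane medians of 20.4 to 29.3 RPM in lanes A to I and 160 to 283 RPM in lanes J to N, with 0 of 98 embryos of the former above the lowest of the latter (68.4 RPM). *Pdia3*, a disulfide isomerase, went from 4.36 to 9.76 RPM up to 18.0 to 48.3 RPM. *P4hb*, another disulfide isomerase, had lane medians of 827 to 1132 RPM in lanes A to I and 294 to 999 RPM in lanes J to N, so the ER genes did not all shift one way. Of the 24 ER genes 19 differed between lanes, as did 29 of 31 co-chaperone genes, 8 of 8 CCT subunits, 13 of 13 mitochondrial genes and 5 of 8 immediate early genes, where 84.9% of all genes did. Neural markers summed to lane medians of 62.7 to 264 RPM in lanes A to I and 194 to 387 RPM in lanes J to N, and erythroid markers to 61250 to 127014 and 44904 to 64295 RPM. Their part in the lane differences was not tested.

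Lane was called after litter for 4 of 5 members, all but *Hspa8* (adjusted p = 0.38), against 84.9% of all genes, so the count of members was near the background. *Hspe1* had lane medians from 1.43 RPM in lane H to 35.5 RPM in lane K (F = 6.91, adjusted p = 1.5e-07). *Dnajb1* had medians of 42.3 to 53.6 RPM in lanes A, B, C, H, I and J and of 84.3 to 109.7 RPM in the 8 other lanes (F = 2.44, adjusted p = 0.017). *Hsph1* was at 226 to 339 RPM in 13 lanes and at 70.4 RPM in lane J, whose 11 embryos (34.6 to 91.6 RPM) had the lowest depth. Its lane call (F = 3.98, adjusted p = 3e-04) was lost without lane J (F = 1.01, adjusted p = 0.46), in limma voom (F = 1.93, adjusted p = 0.062) and in embryos with at least 1000000 reads (F = 0.96, adjusted p = 0.50), and without A03, G03 and L04 the statistic was 14.8 (adjusted p = 5.3e-15).

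**Figure D4:**
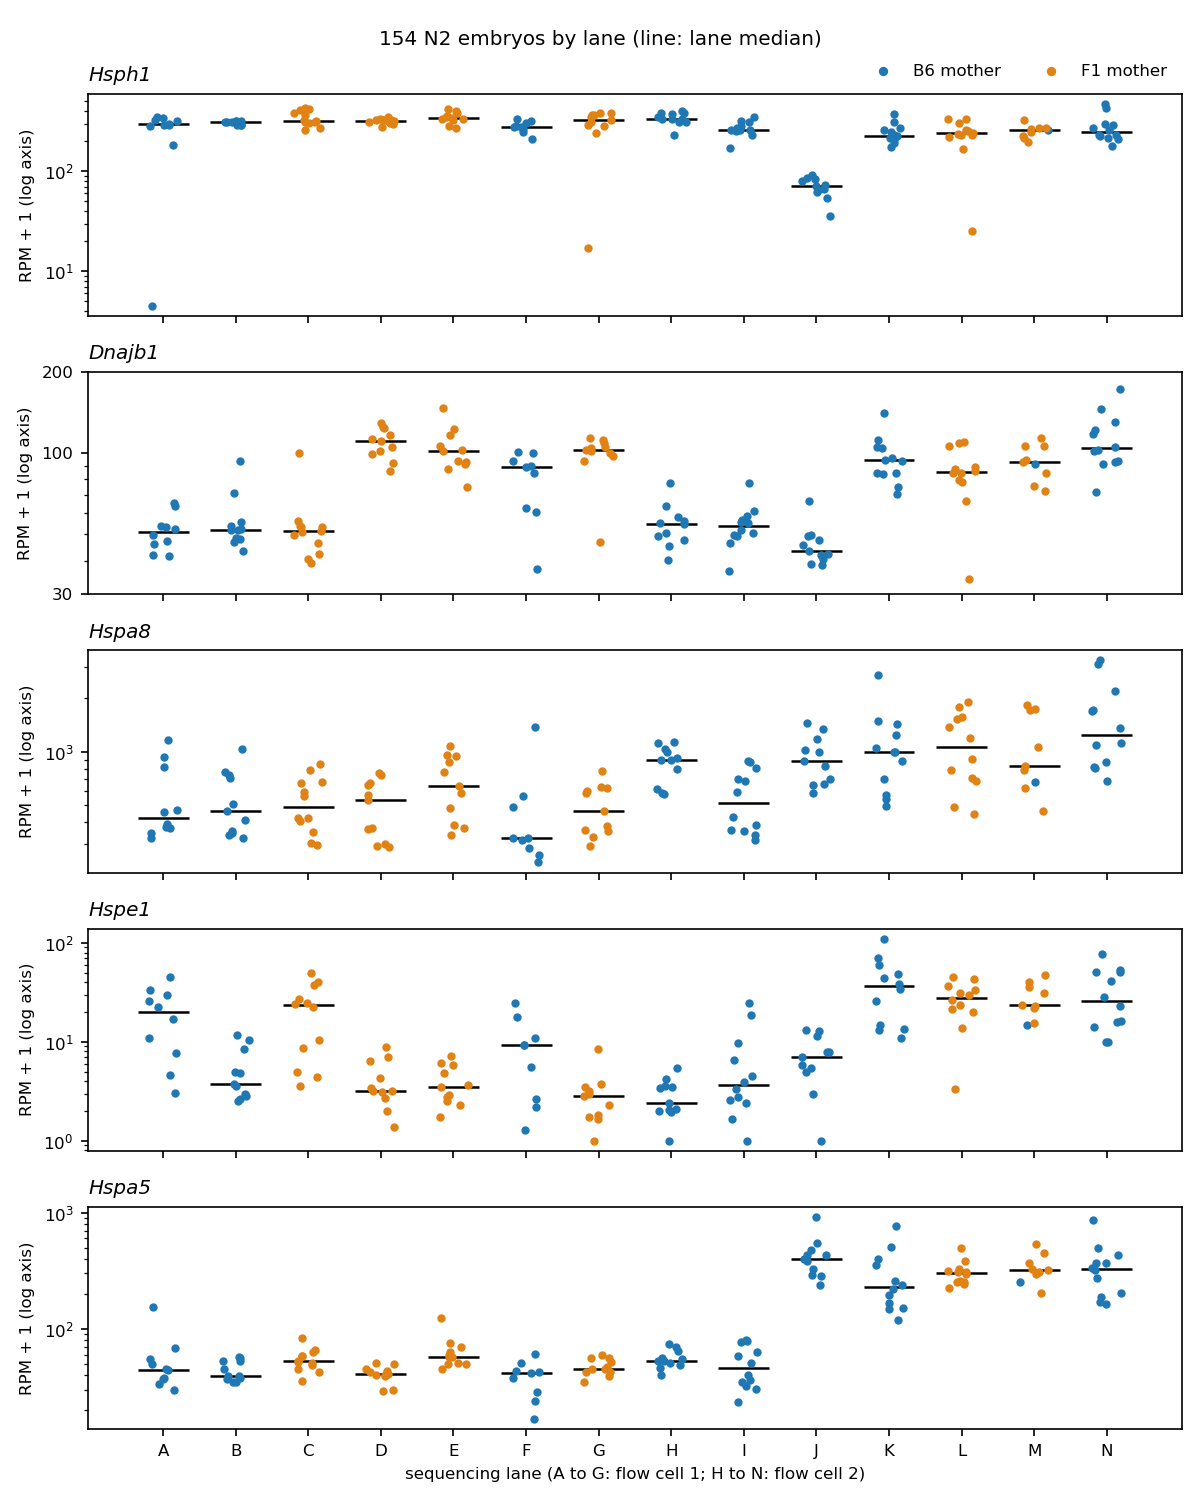
RPM + 1 (log axes) of the 5 members above 5 RPM in 154 N2 embryos by sequencing lane, blue for B6 and orange for F1 mothers, with lane medians as lines. *Hspa5* steps up between lanes I and J, *Hsph1* is low in lane J, and A03, G03 and L04 are the 3 low *Hsph1* points in lanes A, G and L.

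After lane, litter was called for 2 of 5 members, *Hspe1* (F = 3.20, adjusted p = 0.00018) and *Hspa5*, where 57% of all genes were called. *Hsph1* gave F = 0.43 (adjusted p = 0.99) with all embryos and F = 1.73 (adjusted p = 0.044) without A03, G03 and L04, so that the call for *Hsph1* depended on these libraries. *Dnajb1* (adjusted p = 0.26) and *Hspa8* (0.37) did not pass. In the lists, 26 of 31 co-chaperone genes, 4 of 8 CCT subunits, 15 of 24 ER genes, 5 of 13 mitochondrial genes and 4 of 8 immediate early genes differed between litters.

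With lane and litter removed, the SD of log2(RPM + 1) over embryos was 0.90 for *Hspe1*, above that of 98.4% of the genes within 2-fold of its mean, and 0.61 for *Hspa8*, above 94.9%. *Hsph1* had 0.73 with all embryos, above 96.2% of its neighbours in level, but 0.24 without A03, G03 and L04 (n = 151), above 28.1%, so its spread rested on these libraries. *Hspa5* (0.41) and *Dnajb1* (0.30) were above 67% and 23.8%, and without the 3 libraries the SDs of the 4 other members lay between 0.27 and 0.86. The SD of *Hspa8* includes the genotype difference given above.

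The levels of the members were also set side by side over the 154 N2 embryos, as a description, since the points share lanes, litters and scaling. On log2(RPM + 1), *Hspa8* and *Hspa5* correlated at r = 0.57 over all embryos and at 0.0087 within lanes. *Hspe1* and *Hspa5* likewise went from 0.52 to 0.065. *Hsph1* and *Dnajb1* kept a value of 0.42 within lanes, or 0.36 without A03, G03 and L04 (n = 151), the highest among the 10 pairs. *Hspa1a* and *Hspa1b* summed correlated most with *Klhdc10* within lanes (r = 0.42), followed by *Mlx*, *Prkcdbp*, *Gprin1*, *1190007I07Rik*, *Plcd1*, *BC056474*, *Fmnl3*, *Hoxc10* and *Cartpt* (0.35 to 0.32), values that rest on few reads per embryo. *Hsph1* was most like *Mrps15*, a protein of the mitochondrial ribosome (r = 0.88), and this value was 0.57 without the 3 libraries. *Hspa5* was most like *Canx* (r = 0.68).

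Embryos of B6 mothers were compared with embryos of F1 mothers, which asks for an effect of the mother's genotype. Of 5 members 0 passed the Bonferroni threshold, where 5.03% of 9733 genes did, and 2 had an unadjusted p under 0.05. *Dnajb1* came nearest, with a median of 55.6 RPM (35.6 to 172) in 89 embryos of B6 mothers and 92.7 RPM (33.2 to 146) in 65 embryos of F1 mothers, a log2 ratio of means of 0.37 (Mann-Whitney U test, adjusted p = 0.048 against a threshold of 0.01). It passed without A03, G03 and L04 (adjusted p = 0.0099), in edgeR (1.5e-05) and in DESeq2 (2.1e-05). It did not pass with litter as a random block in limma voom (adjusted p = 0.47). Over litter means it did not pass either (adjusted p = 1), but with so few points that threshold is hard to reach. Mothers are nearly nested in lanes, and embryos of F1 mothers had a median of 50.3 RPM in lane C and 109.7 RPM in lane D, so mother and lane cannot be told apart. *Hsph1* had medians of 276 and 313 RPM (log2 ratio of means 0.23, adjusted p = 1), and passed with Benjamini-Hochberg adjustment alone (q = 0.0066).

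For *Hspa8*, *Hspe1* and *Hspa5* the log2 ratios were −0.22, −0.15 and −0.35 (adjusted p = 1 each). Within each of the 2 flow cells the ratios of *Hspa8* (0.057 and 0.16) and *Hspa5* (0.16 and 0.46) were positive, so their negative signs over all embryos did not hold within flow cells. Flow cell 2 holds lanes H to N, so the division of *Hspa5* between lanes I and J falls within it. Its lanes H and I held only embryos of B6 mothers, so mother and lane cannot be told apart there either. In the lists 1 of 31 co-chaperone genes (*Stip1*, which links HSP70 and HSP90, log2 ratio −0.32, adjusted p = 0.00054), 1 of 8 CCT subunits and 1 of 13 mitochondrial genes passed. Of the ER genes 5 of 24 passed, all with higher means in embryos of F1 mothers, among them *Manf* (0.86, adjusted p = 2.3e-05) and *Dnajb11* (0.32, adjusted p = 2.2e-05). The median over the ER list was 0.063, against −0.025 over all genes. Of 8 immediate early genes 0 passed, and of all genes 5.03%. With litter as a random block in limma voom 0 of all 9733 genes passed, so the calls in the lists were lost there. Over litter means and over lane means 0 passed too, but these counts cannot decide. With so few points the threshold is hard to reach over litter means, and no gene could reach it over lane means.

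Somite number, the measure of stage, ran from 42 to 57 in the 147 N2 embryos with a record. *Dnajb1* fell with it (Spearman's rho = −0.29, q = 0.0036) and was the 1 member called of 5 tested, against 21.9% of 10040 genes. *Hspa8* gave rho = −0.17 (q = 0.13), *Hsph1* −0.12 (q = 0.30), *Hspe1* −0.073 and *Hspa5* −0.058. The call of *Dnajb1* was lost with lane regressed out of the ranks (rho = 0.0018, q = 0.99), so no fall with stage was seen within lanes. Over litter means the call was lost too (rho = −0.39, q = 0.40), but with far fewer points. Lanes also differed in stage, and the part of each in the value over all embryos was not tested. In embryos of B6 mothers alone rho was −0.50 (q = 2.5e-05), and of F1 mothers alone −0.22 (q = 0.19). Among the lists, *Hsp90ab1*, the constitutive HSP90 (rho = −0.30), and *Hspa4*, an HSP110 relative (rho = −0.29), were lower in embryos with more somites, and *Dnajb2* (rho = 0.38) and the small heat shock protein gene *Cryab* (rho = 0.31) higher. Called were 5 of 31 co-chaperone genes, 2 of 8 CCT subunits, 3 of 24 ER genes, 0 of 13 mitochondrial genes and 1 of 8 immediate early genes, against the 21.9% of all genes.

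The F1 embryos were sequenced more deeply and compare the reciprocal crosses. B6 × Cast litter 3 (n = 3) had 58 to 63 somites and litter 5 (n = 5) 48 to 50, while Cast × B6 litter 1 (n = 4) had 41 to 43 and litter 2 (n = 4) 46 to 48, in the embryos with a record. Cross and litter are nested, so cross, mother and litter cannot be told apart. *Hsph1* was at 245, 276 and 263 RPM in B6 × Cast litter 3 and at 252, 283, 233, 265 and 298 RPM in litter 5. It was at 303, 329, 343 and 335 RPM in Cast × B6 litter 1 and at 403, 341, 364 and 444 RPM in litter 2. All 8 Cast × B6 embryos were above all 8 B6 × Cast embryos (log2 ratio 0.48, SE 0.085, edgeR quasi-likelihood test, adjusted p = 0.0012).

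*Hspa5* was the other member called between the crosses (2 of 5, where 29% of 9728 genes were called), with a log2 ratio of 0.66 (SE 0.21, adjusted p = 0.025 in edgeR). It was at 71, 92.4 and 75.4 RPM in litter 3 and at 61.8, 65.4, 50.2, 55.3 and 56 RPM in litter 5 of B6 × Cast. Cast × B6 litter 1 had 121, 61.5, 50 and 65.6 RPM and litter 2 had 91.7, 121, 150 and 140 RPM, so that litter 1 overlapped with the other cross and litter 2 was near or above its highest embryo. Between the litters nearest in stage, 5 and 2, the difference was 1.09 (adjusted p = 0.0040), and that of *Hsph1* was 0.51 (adjusted p = 0.020). Litters 5 and 2 shared a sequencing run but differed in their other run, so cross, litter and run cannot be told apart here. *Hspe1* differed by 1.19 (SE 0.57, adjusted p = 0.12), *Hspa8* by 0.12 (SE 0.27) and *Dnajb1* by 0.11 (SE 0.16).

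**Figure D5:**
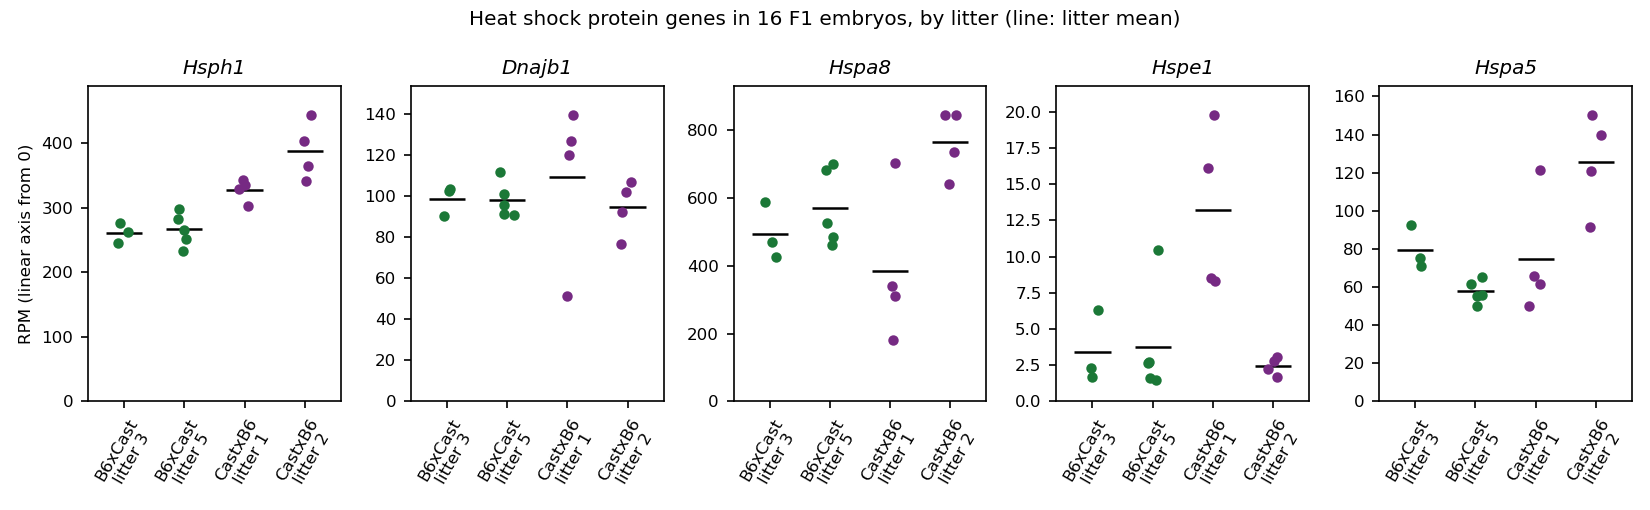
RPM (linear axes from 0) of the 5 members above 5 RPM in the 16 F1 embryos by litter, green for B6 × Cast and purple for Cast × B6, with litter means as lines. *Hsph1* separates the crosses, while *Hspa8*, *Hspe1* and *Hspa5* differ between the litters of Cast × B6.

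Within Cast × B6, litter 2 was compared with the younger litter 1, and 3 of 5 members were called, where 35.8% of all genes were. *Hspe1* had 19.8, 8.55, 8.33 and 16.1 RPM in litter 1 and 2.27, 3.07, 1.72 and 2.82 RPM in litter 2, without overlap (log2 ratio −2.51, SE 0.61, edgeR adjusted p = 0.0057). Its reads are those left after reads with a second match were discarded, and the part of that step was not tested. *Hspa8* had 705, 341, 182 and 310 RPM in litter 1 and 642, 735, 846 and 844 RPM in litter 2, and these overlapped (log2 ratio 0.89, SE 0.32, adjusted p = 0.042). *Hspa5*, with the values given above, had a ratio of 0.66 (SE 0.24, adjusted p = 0.046). The calls of *Hspa8* and *Hspa5* were each lost in 5 of 8 fits without 1 embryo, and with genes admitted by counts in place of 5 RPM both missed the threshold (0.84, adjusted p = 0.055, and 0.61, adjusted p = 0.065, in edgeR). Litter 2 shared a sequencing run with the other litters but differed from them in its second run, so litter, stage and run cannot be told apart.

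Within B6 × Cast, the older litter 3 against litter 5, 0 of 5 members were called by edgeR, where 16% of all genes were. None had an unadjusted p under 0.05, and DESeq2 called 0. Whether the litter difference itself differed between the crosses was tested afterwards, and 0 members passed, with log2 differences of 1.23 for *Hspa8* (adjusted p = 0.065) and −2.26 for *Hspe1* (adjusted p = 0.061) nearest and 3 members at an unadjusted p under 0.05. With genes admitted by counts in place of 5 RPM, *Hspb1* was higher in litter 3 (1.64 to 2.27 RPM) than in litter 5 (0.348 to 0.993 RPM), without overlap (log2 ratio 1.39, adjusted p = 0.0086). In the same fits *Hsp90aa1* (1.11, adjusted p = 0.021) and *Hspd1* (1.28, adjusted p = 0.022) were higher in Cast × B6 than in B6 × Cast.

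The lists were counted in these F1 fits too. Between the crosses 8 of 23 ER genes were called (34.8%, near the 29% of all genes), all higher in Cast × B6, with *Canx* at 0.69 (SE 0.12, edgeR adjusted p = 0.0011) and *Hyou1* at 0.87 (SE 0.19, adjusted p = 0.0039). The median over the ER list was 0.12, against 0.029 over all genes. Of 30 co-chaperone genes 5 were called, 4 of them higher in Cast × B6, *Hsp90ab1* by 0.36 and *St13*, an HSP70 partner, by 0.72. Between the crosses, 2 of 8 CCT subunits, 2 of 12 mitochondrial genes and 2 of 9 immediate early genes passed, the latter *Ier2* and *Jun*, both higher. All 3 lens genes were lower in Cast × B6 (summed 5.12 to 23.7 RPM against 32.1 to 286 RPM), and 3 of 7 erythroid genes were lower, and their part in the member differences was not tested. Within Cast × B6 the litters differed for 10 of 30 co-chaperone genes, 2 of 8 CCT subunits, 3 of 23 ER genes, 6 of 12 mitochondrial genes and 3 of 9 immediate early genes, where 35.8% of all genes did, and within B6 × Cast for 7, 0, 2, 1 and 2, where 16% did.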

How the data were processed

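Poly(A)+ RNA of single embryos was sequenced by 3SEQ. Per the labels and methods, the authors aligned trimmed reads by Bowtie2 against mm9 and against a Cast genome built from SNPs, discarded reads with a second match within an edit distance of 3, and deposited raw read counts per RefSeq gene. They also deposited allele votes, which are estimated counts split over SNPs and not scaled by depth, and genotypes from a hidden Markov model (codes 1.0, 0.5 and 0.0, read as B6/B6, B6/Cast and not called from the votes under each). Of 168 N2 columns 160 matched an embryo and 154 of these had genotypes and were used, and depth was taken from the totals of the tables, since the methods give other mean depths. Groups came from the labels, which name separate embryos. The p-values measure the spread between embryos, except in the binomial tests of parent of origin, which treat votes as separate draws. Mother and F1 cross vary only between litters, and their main tests count littermates as separate embryos.

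RPM were counts per 1000000 reads on genes, and genes needed a mean of 5 RPM. The tests of the methods were used for somite number, mother, own genotype (with 15 principal components in place of PEER, once sex, somite number and lane were removed), allele-specific expression (20 votes, BAF outside 0.45 to 0.55), parent of origin and BAF against somite number. Lane, litter and F1 comparisons used edgeR 4.0.16 with TMM and quasi-likelihood tests, and DESeq2 1.42.0 and limma 3.58.1 (R 4.3.3) as alternatives. The per-gene edgeR fit of own genotype used a dispersion trend from a lane-only design and a likelihood ratio turned into an F test, with normal 95% intervals. Thresholds were an adjusted p under 0.05, 0.01 for mother, own genotype, allele-specific expression and parent of origin, and 0.1 for BAF against somite number. Parent of origin had to pass in both F1 crosses with opposite higher alleles. Copies were searched with BLAST 2.17.0. The main tests were run on simulated data, but the test of the litter difference between the crosses was not. Nor were the edgeR fit of own genotype and the other alternative fits. The simulations for mother and somite number held no lane or litter effects. The members, the lists and the rule for named genes (all members, at most 4 genes per list by p, and the 10 genes most like *Hspa1a* and *Hspa1b*) were chosen with earlier results of these data known. *Mrps15* and the values of *Canx* by lane were chosen after their values were seen.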

Additional observations from a re-analysis of the deposited data

Results flagged for a closer look

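The labels tie 8 of the N2 columns to no cross or litter, and these entered no comparison, and 2 of them held reads of members above the limit that a count of 0 allows. The column labelled E11 (1210811 reads on genes) had 351 RPM of *Hsph1*, 111 RPM of *Dnajb1*, 448 RPM of *Hspa8* and 45.4 RPM of *Hspa5*. The column labelled A02 (17237 reads on genes) had 406 RPM of *Hsph1* from 7 reads and 638 RPM of *Hspa8* from 11 reads. Among 17 groups of F1 embryos and members tested for a sample far from the others, 0 had one, where chance gives about 1 in 20.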

How the results depend on the processing

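No paired analysis was possible because replicate numbers were given in accession order and pair no embryos. Over 471 tested values of members under another setting, 413 kept their direction and call, and 28 changes of sign were between values that passed in neither fit. The settings without A03, G03 and L04 and without lane J were chosen after seeing the data. The number of members called for somite number (1) was 2 in embryos of B6 mothers and for the edgeR slope, and 0 in embryos of F1 mothers, over litter means, with lane regressed out and for the edgeR slope with lane. In embryos of B6 mothers more of all genes were called for somite number too, against 21.9% of 10040 in the main test. For the mother (0) it was 1 in edgeR, in DESeq2 and without the 3 libraries, and 2 with Benjamini-Hochberg adjustment. In edgeR, in DESeq2 and with Benjamini-Hochberg adjustment more of all genes were called as well, against 5.03% of 9733 in the main test. The numbers of all genes are given below, so these counts are not a result about the members. With genes admitted by counts it was 4 for the F1 cross (2), 1 for the B6 × Cast litters (0) and 2 of 9 for the Cast × B6 litters (3 of 5), *Hspe1* and *Hspd1* (−1.24, adjusted p = 0.048 in edgeR). Leaving out 1 embryo gave 1 to 4 for the Cast × B6 litters (3), with 1 without replicates 2, 4, 7 or 8. The median lane share of the members was 63.1%, and 63.3% to 65.9% otherwise, shares within 1.1 times counting as unchanged.

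Signs reversed as follows, with the cause not tested. For own genotype, *Dnajb1* (0.0024) was −0.027, −0.0050 and −0.019 with 0, 5 and 30 components, −0.041 in edgeR, −0.0026 at 1 RPM and −0.017 without the 3 libraries. *Hspa5* (0.051) was −0.0099, −0.022 and −0.0038 with 0, 5 and 30 components, −0.32 uncorrected and −0.075 in edgeR, and *Hspe1* (−0.018) was 0.066 with 30, 0.27 uncorrected and 0.085 in edgeR. For the mother, *Hspa5* was 0.16 and 0.46 and *Hspa8* 0.057 and 0.16 in flow cells 1 and 2, and *Hspe1* 0.65 in flow cell 2 and 0.018 over litter means. For somite number, rho of *Dnajb1* was 0.0018 and of *Hspe1* 0.017 with lane regressed out, and in embryos of F1 mothers 0.22 for *Hspe1* and 0.011 for *Hspa5*. The BAF of *Dnajb1* against somite number was 0.049 at 10 votes, the BAF of *Hspe1* minus 0.5 −0.0062 in N2 alone, the F1 cross ratio of *Dnajb1* −0.096 between litters 5 and 2, and the B6 × Cast litter ratio of *Hspe1* between −1.04 and 0.59 without 1 embryo, 0.082 without replicate 3.

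The number of all genes called moved by over 1.5 times for somite number (2200; 5162 with B6 mothers, 990 and 1150 with lane, 174 over litter means), mother (490; 2077, 1809 and 1626 by Benjamini-Hochberg, DESeq2 and edgeR, 225 and 26 in flow cells 1 and 2, 0 over lane or litter means and with the litter block), own genotype (2706; 1759 without components, 1087 uncorrected, 1760 in edgeR), allele-specific expression (1714; 2889 by Benjamini-Hochberg, 1085 in F1), parent of origin (162; 15 over embryos), BAF against somite number (10; 63 and 2 by mother, 2 with lane, 17 at 10 votes), the F1 cross (2819; 1286 for litters 5 and 2) and the B6 × Cast litters (1552; 585, 686 and 934 without replicates 2, 3 and 8). For the mother, no gene could reach the Bonferroni threshold over lane means, and over litter means it is hard to reach. Single N2 embryos carry few reads of *Hspe1* and the members below it.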

Other observations

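Of the N2 libraries, 6 matched an embryo but had no deposited genotype, of which 4 held under 1000 reads on genes. Library F03 had 266 RPM of *Hsph1*, 89.7 RPM of *Dnajb1*, 438 RPM of *Hspa8*, 14.7 RPM of *Hspe1* and 59.9 RPM of *Hspa5*. Library J07, of lane J, had 34.7 RPM of *Hsph1* from 6 reads and 498 RPM of *Hspa5* from 86 reads. The lane medians of *Hspa5* over the embryos used were 40.7 RPM in lane F and 397 RPM in lane J.

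*Dnajb1* was most like *Brca1* within lanes over the 154 N2 embryos (r = 0.74) and *Hspe1* most like *Txn1*, thioredoxin (r = 0.74). *Hspa8* was most like *Spa17* (r = 0.53) once its second row was set aside. Genotype was not removed, so the value of *Hspa8* includes its difference between genotypes given above. These are descriptions over points that share lanes and litters.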
